A study of Homo sapiens with 10 samples.

Results

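The comparison set 2 libraries of DLD-1 cells whose auxin had been washed out (AID_wash) against 2 libraries kept in auxin for 12 h (AID_aux), 4 of the 10 libraries of the study. DLD-1 is an established human colorectal adenocarcinoma line, and open chromatin was mapped by ATAC-seq, which marks accessible DNA by transposase insertion. Both groups, and 2 libraries read as untreated (AID_ctrl, labelled with auxin at 0 h and titled as control), carry the genotype GATA6-AID-IAA7, GATA6 fused to an auxin degron. Auxin was 500 µM IAA, and the washout has a time label of 1 without a unit. The treatment text speaks of positive clones, and neither the number of clones nor whether replicates were separate cultures is given, so the spread between replicates may be technical. Cells in which CRISPR disrupted GATA6 (KO) and unedited cells (WT), with 2 libraries each, are set beside the comparison as lines that share no library with it. The libraries were chosen by their labels, and overlapping peaks of the 6 degron libraries (chromosomes 1 to 22, and X) gave 120452 merged regions. Of these, 82756 were held by at least 2 of the 6 shortened lists and form the regions compared.

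GATA6 is a zinc-finger transcription factor of endoderm, gut and pancreas that binds the core letters GATA and can open chromatin at enhancers. The degron tag lets a ubiquitin ligase mark the protein for destruction while auxin is present, and removal of auxin lets newly made protein accumulate. A knockout, by contrast, disrupts the gene itself. No protein measurement was used here, so GATA6 levels in these libraries are unknown.

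Promoters were a small part of the regions that set the groups apart, and the sequences below are those of the 3 starts with the largest separation above AID_aux (SPINK4, CELSR2, EGFR) and of the 1 with the largest below it (CLEC12B). Each is the 250 bases before the gene's start from RefSeq (GRCh38.p14), read on the gene's strand, which is the plus strand for all 4. Capitals mark the words AGATAA or AGATAG, or TGATAA or TGATAG, on either strand, which contain the core bound by GATA factors. The positions are chr9:33239917-33240166 for SPINK4, chr1:109249289-109249538 for CELSR2, chr7:55018767-55019016 for EGFR and chr12:10010377-10010626 for CLEC12B.
SPINK4: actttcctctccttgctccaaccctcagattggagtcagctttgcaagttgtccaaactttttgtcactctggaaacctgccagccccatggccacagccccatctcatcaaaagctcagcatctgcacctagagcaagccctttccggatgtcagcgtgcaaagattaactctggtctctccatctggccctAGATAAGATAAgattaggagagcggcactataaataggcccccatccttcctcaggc
CELSR2: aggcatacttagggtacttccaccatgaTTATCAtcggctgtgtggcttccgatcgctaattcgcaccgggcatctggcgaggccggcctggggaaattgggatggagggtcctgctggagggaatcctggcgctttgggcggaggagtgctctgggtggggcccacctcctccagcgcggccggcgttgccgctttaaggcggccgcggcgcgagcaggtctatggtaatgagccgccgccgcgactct
EGFR: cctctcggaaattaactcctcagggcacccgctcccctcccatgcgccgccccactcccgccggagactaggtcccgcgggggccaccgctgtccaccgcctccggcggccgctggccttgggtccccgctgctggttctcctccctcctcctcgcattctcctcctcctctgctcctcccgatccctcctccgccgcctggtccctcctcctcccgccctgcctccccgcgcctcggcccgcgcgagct
CLEC12B: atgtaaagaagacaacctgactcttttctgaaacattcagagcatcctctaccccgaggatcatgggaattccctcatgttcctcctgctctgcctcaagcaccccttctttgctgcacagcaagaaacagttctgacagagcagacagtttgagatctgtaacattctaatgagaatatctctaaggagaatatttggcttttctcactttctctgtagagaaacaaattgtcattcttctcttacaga
SPINK4 had 2 AGATAA words on its own strand that overlap by 1 base, at 57 to 52 and 52 to 47 bp before the start. CELSR2 had 1 TGATAA word on the opposite strand, 222 to 217 bp before its start, and EGFR and CLEC12B had 0. Of 15812 promoters in the table, which is not complete, 2786 (17.6%) hold such a word. A word is a match of letters and not a measured site.

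Values are within-library percentiles. In each library the regions were ranked by the authors' fold enrichment, taking the highest peak of a region, and each list was shortened to about the 73214 regions of AID_wash replicate 1, the shortest list. Regions tied at the end of a list were kept or left out together, so the shortened lists held 73214 and 74093 regions in AID_wash, 73214 and 73219 in AID_aux and 73325 and 73214 in AID_ctrl. A percentile of 100 is the highest region of a library and 0 means that the region was not among those kept. The unmatched lists held 73214 and 89518 regions in AID_wash, 95807 and 85193 in AID_aux and 89608 and 87260 in AID_ctrl. The files hold no read counts, so depth is unknown and a region at 0 may be open below the peak threshold. The AID_wash replicates shared 85.5% of the shortened list of replicate 1 and 84.5% of that of replicate 2, the AID_aux replicates shared 88.2% of either list, and an AID_wash and an AID_aux library shared 83.9 to 88.2% of either list. Whole-list differences between the groups were thus close to those between replicates.

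No single region passed the adjusted threshold. Limma on the percentiles of all 6 degron libraries, with Benjamini-Hochberg adjustment, called 0 regions (0.0%) higher and 0 (0.0%) lower in AID_wash than in AID_aux at 0.05, and the lowest adjusted p was 0.074. At an unadjusted p under 0.05, 3624 regions (4.38%) were higher and 3641 (4.4%) lower. The 33 regions with a limma adjusted p under 0.10 were all higher in AID_wash. Ranking regions by the authors' −log10 p instead, an alternative ranking, gave 110 regions (0.134%) higher in AID_wash and 0 (0.0%) lower by limma, with a lowest adjusted p of 0.017, and at an unadjusted p under 0.05 it gave 4375 (5.34%) and 3420 (4.18%). These 110 regions differed by 21.3 to 86.2 points. Their median enrichment percentiles were 88.0 and 87.9 in AID_wash, 32.3 and 30.3 in AID_aux and 85.3 and 86.4 in AID_ctrl. Both AID_ctrl lists held all 110, against 78.0% of all regions compared. They also held 20687 of the 20689 regions highest by mean AID_wash percentile, so the count of 110 is close to that of regions of high rank.

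The groups were then compared by the gap, the lower percentile of one group minus the higher percentile of the other, so that a gap above 0 means that the 4 libraries did not overlap. With 2 libraries a group an exact two-sided permutation test cannot go below p = 0.333, so gaps are counts with no test. AID_wash lay above AID_aux without overlap in 15162 regions (18.3%) and below it in 13925 (16.8%). A gap of at least 10 points was found in 4805 regions (5.81%) above and 4709 (5.69%) below. A gap of at least 20 points was found in 1827 regions (2.21%) with AID_wash above and in 1470 (1.78%) with AID_wash below. At 30 points or more the numbers were 842 (1.02%) above and 442 (0.534%) below, at 40 points 420 (0.508%) and 117 (0.141%), and at 50 points, a size chosen after the data were seen, 220 (0.266%) and 24 (0.029%). The 2 directions were thus close in number at small gaps, and with these settings large gaps lay mostly above AID_aux. In terms of presence, 2198 regions (2.66%) were held by both AID_wash and neither AID_aux list, and 2105 (2.54%) by both AID_aux and neither AID_wash list, most of them with low percentiles (medians 19.6 and 15.1 in AID_wash for the 2198). The split depended on the processing. At 20 points it was 1151 above and 2862 below with unmatched lists, 1497 and 1497 with lists cut shorter still, 2010 and 2129 when peaks had to cover 50% of a region, and 1724 and 770 by −log10 p. At 50 points it was 128 above and 34 below with unmatched lists, 210 and 113 with the shortest lists, 156 and 0 by −log10 p, and 352 and 425, the other way round, under the 50% cover. With 1 library left out, more regions lay above than below at 20 points in 1 of 4 cases: 4738 above and 4101 below when AID_wash replicate 1 was left out, 5116 and 5226 for AID_wash replicate 2, 4176 and 4490 for AID_aux replicate 1, and 3755 and 4835 for AID_aux replicate 2. At 50 points more lay above in all 4 cases, with 409 and 76, 417 and 289, 371 and 178, and 355 and 187 regions in the same order.

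**Figure D1:**
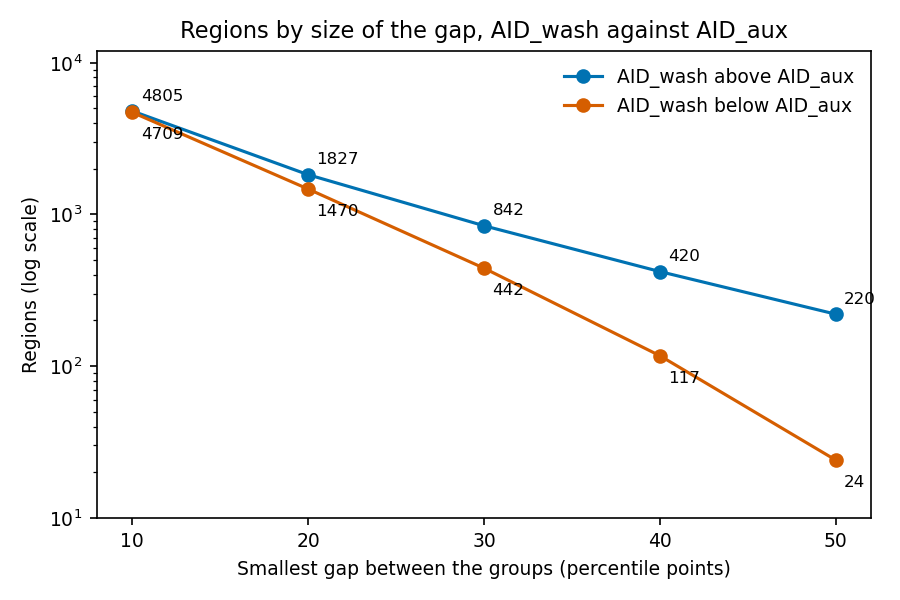
Number of regions (log axis) whose AID_wash and AID_aux percentiles are separated by at least the gap on the horizontal axis, in percentile points, with AID_wash above AID_aux (blue) or below it (orange). The curves nearly meet at 10 points (4805 and 4709 regions) and part to 220 and 24 regions at 50 points.

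The 220 regions with a gap of at least 50 points above AID_aux were strong in the washout and in the untreated cells. Their median percentiles were 72.7 and 72.7 in AID_wash, 0 and 0 in AID_aux and 72.1 and 72.2 in AID_ctrl, and 219 of them (99.5%) were held by both AID_ctrl lists, against 78.0% of all regions compared. The choice of regions low in AID_aux itself favours higher levels in AID_ctrl, so no test was made of that difference. Rank also matters for this share. Both AID_ctrl lists held 95.0% of the 56386 regions held by all 4 AID_wash and AID_aux lists, whose AID_wash medians were 61.1 and 60.8. They held 20687 of the 20689 regions highest by mean AID_wash percentile. The part of rank in the 99.5% was not tested. The 24 regions with a gap of at least 50 points below AID_aux had median percentiles of 0 and 6.59 in AID_wash, 70.4 and 64.8 in AID_aux and 25.7 and 35.0 in AID_ctrl. In these, the AID_ctrl medians lay between the 2 groups, while in the 220 they lay at the AID_wash level.

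The 15 regions with the largest gaps above AID_aux had gaps of 77.3 to 93.3 points. The first (chr18:41714556-41715730) has no protein-coding gene within 100000 bp, and its percentiles were 96.6 and 93.3 in AID_wash, 0 and 0 in AID_aux and 99.4 and 98.3 in AID_ctrl. In the unmatched lists its enrichment was 14.8-fold and 14.0-fold in AID_wash, AID_aux replicate 2 still held it at 3.93-fold, and AID_aux replicate 1 did not hold it. The second (chr3:54801689-54802512) lies in CACNA2D3, which encodes an auxiliary subunit of voltage-gated calcium channels, and had 92.9 and 92.6 in AID_wash, 0 and 0 in AID_aux and 94.3 and 96.3 in AID_ctrl. Both ranked near the top of the washout lists and were absent from the shortened auxin lists. The third (chr15:49434993-49435896) lies in FGF7, the keratinocyte growth factor gene, and had 92.9 and 91.2 in AID_wash, 0 and 0 in AID_aux and 89.6 and 74.9 in AID_ctrl. A region in XRN1, which encodes a cytoplasmic RNA exonuclease (chr3:142315105-142316605), had 90.7 and 93.1 in AID_wash, 0 and 0 in AID_aux and 71.1 and 71.7 in AID_ctrl. In these 4 regions the 2 washout libraries lay far above both auxin libraries, by limma differences of 94.9 ± 7.20, 92.7 ± 7.53, 92.1 ± 9.24 and 91.9 ± 9.07 points (SE), with adjusted p from 0.074 to 0.081.

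The other regions among the 15 lie in PLB1 (a phospholipase of the gut brush border), CLSTN2 (a synaptic cadherin-like protein), MACROD2 (an ADP-ribose hydrolase) and APBB1IP (a Rap effector that activates integrins). Others lie near RDX, which links actin to the membrane, near THSD7B, near RP1, a photoreceptor gene, near NAT1, an acetyltransferase gene, and near MAGEA11, a cancer-testis antigen gene. The last 2 have no protein-coding gene within 100000 bp. Of the 15 regions, 10 were in neither matched AID_aux list and the highest AID_aux percentile was 4.87, while all 15 were held by both AID_ctrl lists, at percentiles from 20.1 to 99.4. Their limma adjusted p ran from 0.074 to 0.289, and 6 of the 15 passed when regions were ranked by −log10 p, where the 15 ran from 0.021 to 0.224. The nearest gene is given as position and does not say which gene a region acts on.

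The 15 regions with the largest gaps below AID_aux had smaller gaps, 52.5 to 59.0 points, and limma adjusted p from 0.174 to 0.343, and none passed under either ranking. The first (chr5:54090411-54091033) lies in ARL15, an ARF-like GTPase gene, and had percentiles of 0 and 0.367 in AID_wash, 59.4 and 76.5 in AID_aux and 46.7 and 38.2 in AID_ctrl. A region 26313 bp from NPY1R, a neuropeptide Y receptor gene (chr4:163297227-163298071), had 0 and 0 in AID_wash, 56.3 and 57.4 in AID_aux and 0 and 0 in AID_ctrl, so that of the 6 degron lists it was held by those of AID_aux alone. A region in ZFP91, a zinc-finger ubiquitin ligase gene (chr11:58604833-58606047), had 19.6 and 12.2 in AID_wash, 75.7 and 87.2 in AID_aux and 73.7 and 87.6 in AID_ctrl. The AID_ctrl libraries thus sided with AID_wash in the region near NPY1R, with AID_aux in ZFP91 and lay between them in ARL15. The limma differences were −67.8 ± 12.1 points in ARL15, −56.9 ± 8.57 near NPY1R and −65.5 ± 9.63 in ZFP91 (SE). Others lay near RAP2B, ARHGEF7, QPRT, CD209, CYP2A7, DDX59, MBD2 and LRRC1, in DERA, or had no protein-coding gene within 100000 bp (2 regions).

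**Figure D2:**
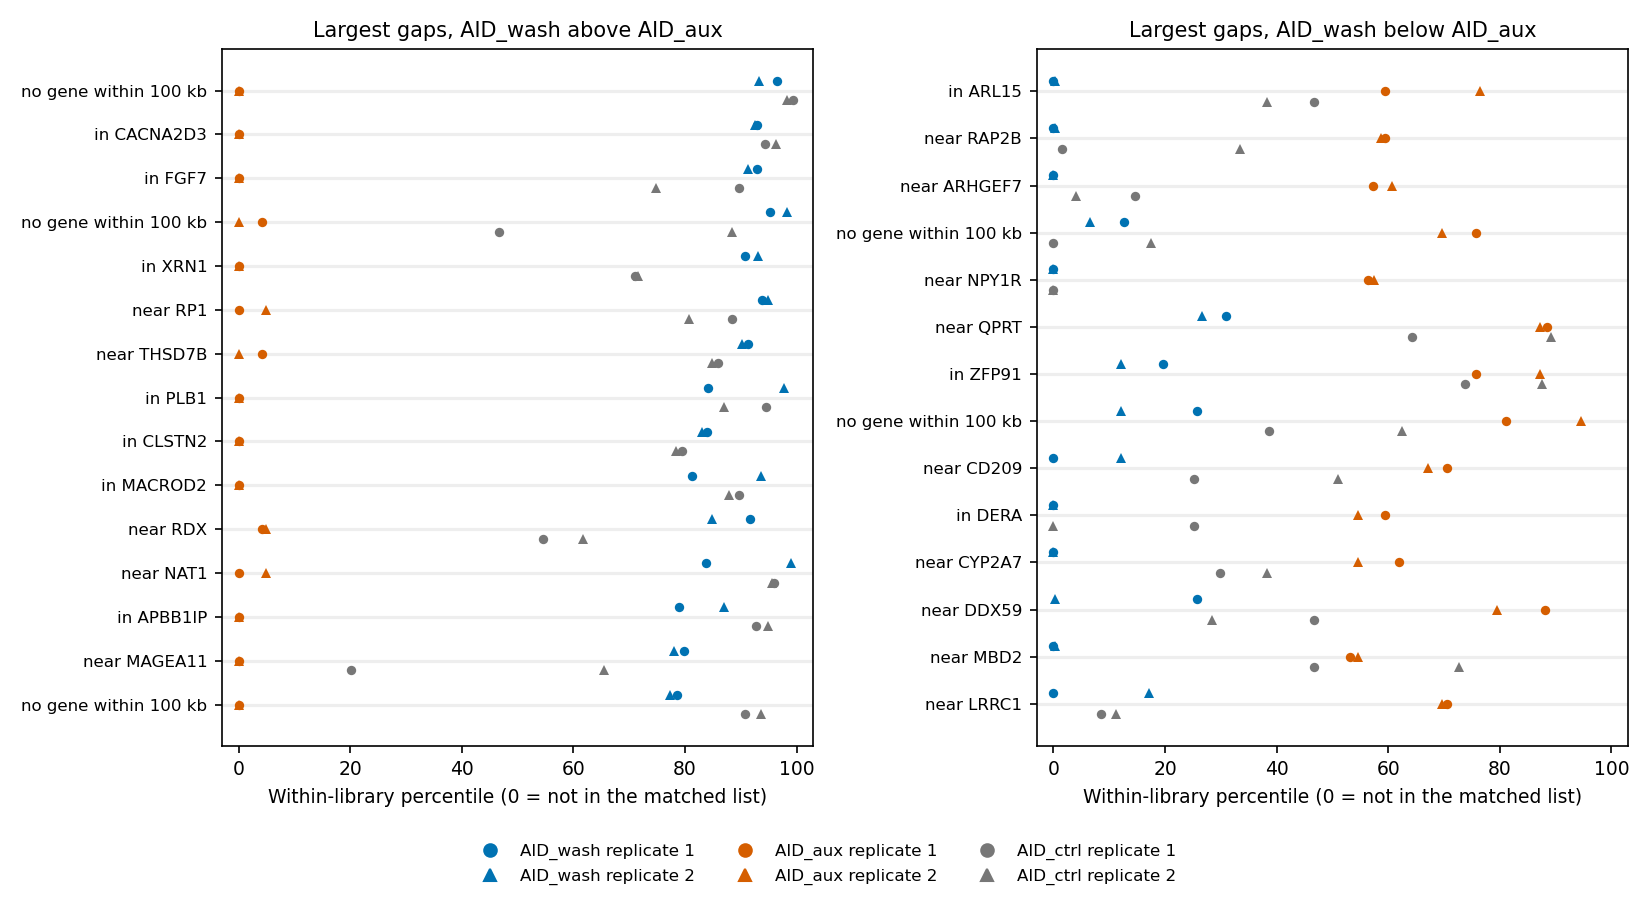
Within-library percentiles (horizontal axis, 0 = not in the matched list) of the 15 regions with the largest gaps above AID_aux (left) and 14 of the 15 below it (right), with 1 point per library and the nearest protein-coding gene as label. On the left the AID_wash points lie at 77.3 or higher and the AID_aux points at 4.87 or lower, with the AID_ctrl points from 20.1 to 99.4, and on the right the AID_ctrl points scatter from 0 to 89.1.

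The regions with large gaps above AID_aux were called in smaller shares in KO than in WT cells. Of the 220 regions with a gap of at least 50 points above AID_aux, KO libraries called 110 (50%) and 90 (40.9%), and WT libraries called 209 (95.0%) and 165 (75%). Over all regions compared, the shares were 94.3% and 91.1% in KO and 82.0% and 59.1% in WT. The KO lists are longer than the WT lists, with 130311 and 116231 windows in KO and 92814 and 65939 in WT, and the part of list length in these shares was not tested. Calls by neither KO library and both WT libraries were found for 69 of the 220 regions (31.4%, Wilson 95% interval 25.6 to 37.8), against 606 of all 82756 regions (0.732%, 0.676 to 0.793). This share was added after the data were seen, and its intervals cover counting over regions only, which are not replicates. It was 13.8% with lists cut shorter still, 18.2% when peaks had to cover 50% of a region and 40.6% with unmatched lists. With AID_wash replicate 1 left out it was 23.7%, and with AID_wash replicate 2 left out 24.0%. The values were 22.9% when AID_aux replicate 1 was left out and 22% for AID_aux replicate 2.

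The share of regions called in KO was lower at each larger gap above AID_aux. From gaps under 10 points to gaps of 50 or more, KO replicate 1 called 95.9, 90.0, 80.6, 73.7, 61.5 and 50% of the regions, and KO replicate 2 called 94.1, 86.4, 75.2, 64.9, 50.5 and 40.9%. The 20689 regions highest by mean AID_wash percentile were called by KO libraries in 99.3% and 99% of cases, but these rank higher than the 220, with median percentiles of 85.8 and 85.6 in AID_wash, and the part of rank in the KO shares was not tested. At gaps of at least 20 points above AID_aux, KO called 73.2% and 66.0% of 1827 regions and WT called 87.8% and 59.6%. Of these 1827, 216 (11.8%, 10.4 to 13.4) had no KO call and both WT calls. Below AID_aux the picture differed: at gaps of at least 20 points KO called 96.3% and 93.9% of 1470 regions, and WT called 74.8% and 36.8%. Of these 1470, 3 regions (0.204%, 0.0694 to 0.598) had no KO call and both WT calls. In that set 281 regions (19.1%) were called by both KO and neither WT library, against 11.5% of all regions. All 24 regions with a gap of at least 50 points below AID_aux were called by both KO libraries. Over all regions the KO libraries called 94.3% and 91.1%, so the KO calls below AID_aux are close to the shares over all regions. Of the 15 named regions above AID_aux, 9 were called by neither KO and both WT libraries, those of chromosome 18, CACNA2D3 and FGF7 among them.

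**Figure D3:**
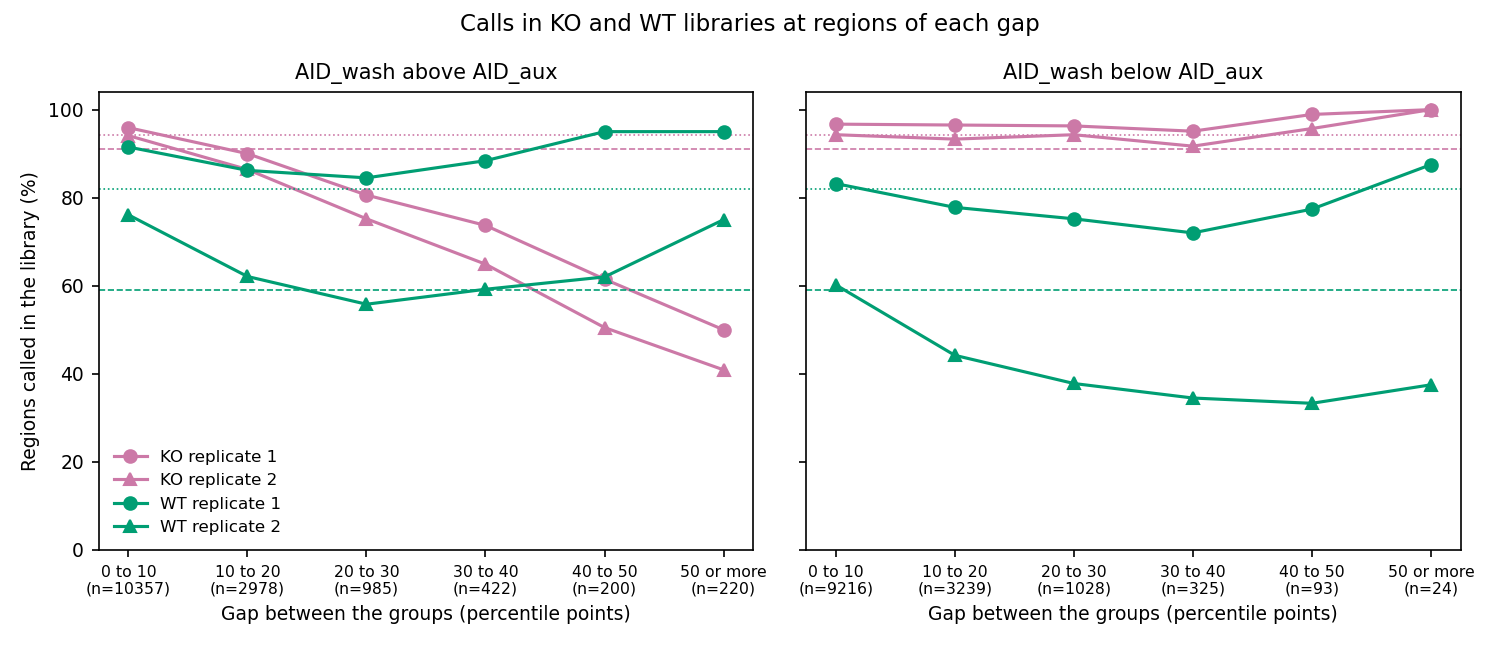
Percent of regions called in each KO and WT library (vertical axis) by the gap between AID_wash and AID_aux in percentile points (horizontal axis), for AID_wash above (left) and below AID_aux (right). Dashed and dotted lines give the library's share over all 82756 regions. KO calls are fewer at each step on the left, down to 50% and 40.9%, and are at 100% in the last step on the right.

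The separated regions lay away from gene ends. Of the 1827 regions at least 20 points above AID_aux, 4.49% lay within 1000 bp of either end of a protein-coding gene, and of the 1470 below 3.95%, against 15.9% of all regions. In the 220 regions with the 50-point gap above AID_aux 4 (1.82%) did. Their median distance to a gene end was 45565 bp, against 21488 bp over all regions, and 48.6% lay within a gene body, against 52.3%. They were also somewhat longer than all regions, with a median of 1102 bp against 965 bp, while the 1470 regions below AID_aux had a median of 785 bp. Regions of high rank were longer still. The median was 1156 bp in the 56386 held by all 4 lists and 1290 bp in the 20689 highest by mean AID_wash percentile. The part of rank in these lengths was not tested.

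Among 16794 protein-coding genes with a region compared, 1336 had at least 1 region with a gap of 20 points above AID_aux, 1104 had 1 below and 180 had both. BCAS3, which encodes a cytoskeletal and autophagy-related protein, had the most above, 5 of 18 regions. Next came BPNT2, a Golgi nucleotide phosphatase gene, with 4 of 16 regions, GRIN2B, a glutamate receptor subunit gene, with 4 of 24, and NEDD4L, a ubiquitin ligase gene for epithelial sodium channels, with 4 of 44. HECW2, ARHGAP42, FILIP1, CASK, PTPRM and SYT1 had 3 each, with gaps up to 75.4 points in FILIP1. Of these 10 genes, BCAS3 and ARHGAP42 also had 1 region each below AID_aux, with gaps of 25.8 and 22.7 points. Below AID_aux, EYA2, a transcriptional coactivator and phosphatase gene, had 4 of 18 regions, with gaps up to 25.5 points. KAT6B, RIPK4, PITPNM2, KAZN and DUSP10 had 3 each, and IRF8, CMIP, UMODL1 and RAP2B had 2. Of these, EYA2, KAZN and DUSP10 also had 1 region each above AID_aux, with gaps of 25.7, 42.7 and 30.5 points, each larger than any gap of the same gene below AID_aux. The lengths of the named genes ran from 35.9 kb in BPNT2 to 840 kb in PTPRM above AID_aux and from 8.4 kb in RAP2B to 1230 kb in KAZN below.

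At promoters the largest gap was that of SPINK4, which encodes a protease inhibitor secreted by goblet cells. Its region (chr9:33239681-33240904) had percentiles of 69.3 and 67.8 in AID_wash, 0 and 9.74 in AID_aux and 67.0 and 67.2 in AID_ctrl. The fold enrichments were 9.47 and 9.64 in AID_wash, 3.96 and 4.68 in AID_aux and 9.79 and 9.87 in AID_ctrl, so both auxin libraries held a weaker peak in the unmatched lists. Both washout libraries lay at the AID_ctrl level and above both auxin libraries, with a limma difference of 63.7 ± 10.6 points (SE) and an adjusted p of 0.218. Neither KO library and both WT libraries called it. Of the 33 gene starts in regions with a gap of at least 20 points above AID_aux, SPINK4 was the only 1 with that pattern. The pattern was found in 11.8% of all 1827 regions with such a gap and in 0.732% of all regions compared.

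The EGFR promoter, at the receptor tyrosine kinase gene, had percentiles of 71.4 and 68.4 in AID_wash, 29.6 and 40.6 in AID_aux and 39.8 and 59.8 in AID_ctrl. That of CELSR2, a planar polarity cadherin gene, had 61.1 and 60.5 in AID_wash, 30.3 and 32.7 in AID_aux and 57.0 and 50.4 in AID_ctrl. In both promoters the washout libraries were thus above both auxin libraries and above both AID_ctrl libraries. Both KO and both WT libraries called the EGFR and CELSR2 promoters. CRACR2A, a calcium sensor gene, and PDS5B, a cohesin regulator gene, followed with gaps of 27.2 and 25.4 points. RETNLB, another goblet cell secreted protein gene, was not chosen by the rule for named genes and was named after its values were seen. Its promoter had 25.7 and 22.1 in AID_wash, 0 and 0 in AID_aux and 24.0 and 15.2 in AID_ctrl, and both KO libraries called it.

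Below AID_aux, the promoter of CLEC12B, a C-type lectin receptor gene of myeloid cells, had 31.0 and 26.6 in AID_wash, 70.6 and 77.9 in AID_aux and 73.7 and 46.9 in AID_ctrl. That of TEKT5, a tektin gene of the sperm tail, had 0 and 0 in AID_wash, 41.3 and 36.5 in AID_aux and 0 and 4.06 in AID_ctrl. The other 3 were ABCC12, CAMP and PDIA6, with gaps of 25.5 to 27.7 points. The GATA words were held by 8 of the 33 promoters above AID_aux (24.2%), by 3 of 16 below it (18.8%) and by 1143 of the 9507 promoters whose start lay in any region compared (12.0%). Some of the 33 starts share a region, such as PI4KA and SNAP29, so they are not separate cases.

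At GATA6 itself, 12 regions within 100000 bp were compared. The shortened lists held 11 and 10 of them in AID_wash, 11 and 9 in AID_aux and 8 and 8 in AID_ctrl. A region 63007 bp from the gene (chr18:22106042-22107122) had 69.4 and 48.7 in AID_wash, 19.7 and 0 in AID_aux and 58.9 and 73.0 in AID_ctrl, a limma difference of 49.1 ± 13.4 points (SE) with an adjusted p of 0.385. It was the 1 region of the 12 with a gap of 20 points above AID_aux, and 0 had one below. Both KO and both WT libraries called this region. Peaks at the locus do not measure GATA6 protein.

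Endoderm and intestinal transcription factor genes had 7 of 190 regions (3.68%) at least 20 points above AID_aux and 4 (2.11%) below, where all regions had 2.21% and 1.78%. A region 45043 bp from KLF5, a factor of proliferating crypt cells (chr13:73121980-73123182), had 73.0 and 82.8 in AID_wash, 36.2 and 0 in AID_aux and 73.4 and 80.7 in AID_ctrl, and neither KO library and both WT libraries called it. Another region 15246 bp from KLF5 (chr13:73039422-73040038) went the other way, with 32.5 and 39.1 in AID_wash, 66.7 and 61.8 in AID_aux and 57.1 and 36.6 in AID_ctrl. Both KO libraries and WT replicate 1 called this second region. A region near KLF4, a factor of differentiated epithelium, had a gap of 34.7 points above AID_aux. Of the KO and WT libraries only KO replicate 1 called it.

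Hippo pathway genes had 4 of 184 regions above (2.17%) and 4 below (2.17%), close to the shares over all regions. A region in YAP1, the transcriptional effector of the pathway (chr11:102191727-102193224), had 54.3 and 47.8 in AID_wash, 0 and 0 in AID_aux and 83.6 and 80.6 in AID_ctrl. The washout libraries were thus above both auxin libraries and below both AID_ctrl libraries. A region in STK4, the gene of an upstream kinase (chr20:45015861-45016473), had 46.2 and 48.5 in AID_wash, 0 and 0 in AID_aux and 37.3 and 27.5 in AID_ctrl. One in AMOTL1, an angiomotin scaffold gene, had a gap of 31.9 points. All 3 were called by neither KO and both WT libraries, and their limma adjusted p ran from 0.299 to 0.407. A region in STK3, another gene of the list (chr8:98919772-98920980), went the other way. It had 12.7 and 32.6 in AID_wash, 58.7 and 66.2 in AID_aux and 14.6 and 46.9 in AID_ctrl. A second STK3 region lay 25.3 points below AID_aux, and both KO libraries called both STK3 regions.

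The list of cell adhesion and junction genes held 10 of 197 regions above AID_aux (5.08%) and 2 below (1.02%). A region in PARD3, a polarity protein of tight junctions (chr10:34212829-34214126), had 87.2 and 71.1 in AID_wash, 0 and 0 in AID_aux and 97.4 and 85.5 in AID_ctrl. One 93319 bp from PKP2, a desmosome gene (chr12:32989721-32990472), had 62.6 and 51.9 in AID_wash, 0 and 0 in AID_aux and 27.9 and 7.08 in AID_ctrl, and none of the KO and WT libraries called it. One 4855 bp from F11R, which encodes a junctional adhesion molecule, had 77.3 and 75.9 in AID_wash, 33.6 and 34.1 in AID_aux and 68.2 and 61.3 in AID_ctrl. KO replicate 1 and both WT libraries called the PARD3 region, and KO replicate 2 did not. Both KO and both WT libraries called the region 4855 bp from F11R. In these regions of PARD3, PKP2 and F11R the groups were apart, with limma adjusted p of 0.132, 0.288 and 0.278. Another region in PARD3 lay 36.6 points below AID_aux, and one in CTNNA1, the alpha-catenin gene, 30.5 points below. The median difference over the list was 2.17 points, against 0.184 points over all regions.

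Among AP-1 and immediate early genes, 4 of 101 regions lay above AID_aux (3.96%) and 0 below. These were near FOSL2, BATF3 and IER2, which encode a Fos-family, a BATF-family and an immediate early protein, and near DUSP5, the gene of an ERK phosphatase. The region 25941 bp from FOSL2 had 65.9 and 47.7 in AID_wash, 0 and 0 in AID_aux and 81.9 and 48.9 in AID_ctrl, and neither KO library and both WT libraries called it. That 1900 bp from BATF3 had 66.2 and 53.1 in AID_wash, 0.013 and 7.98 in AID_aux and 74.8 and 57.6 in AID_ctrl, with a limma adjusted p of 0.317, or 0.037 by the −log10 p ranking, within a range of 0.037 to 0.794 over the alternatives. Both KO and both WT libraries called the regions near BATF3, DUSP5 and IER2. The regions near FOSL2 and BATF3 were at or near 0 in the auxin libraries and overlapped the AID_ctrl range in the washout. The median difference over this list was 2.43 points.

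WNT pathway and stem cell genes had 4 of 194 regions above (2.06%) and 1 below (0.515%). A region in SMOC2, a matricellular protein gene of intestinal stem cells (chr6:168596444-168598126), had 93.4 and 93.2 in AID_wash, 24.1 and 45.9 in AID_aux and 93.2 and 95.9 in AID_ctrl. A second SMOC2 region had a gap of 26.6 points, and regions near NKD1, a WNT feedback inhibitor gene, and EPHB3, an ephrin receptor gene of crypts, had gaps of 30.2 and 23.8 points. The region below AID_aux lies in LEF1, a transcription factor of the pathway, and had 45.1 and 42.9 in AID_wash, 82.8 and 83.4 in AID_aux and 87.0 and 68.1 in AID_ctrl. SMOC2 was thus highest in the washout and untreated libraries and LEF1 lowest in the washout libraries. Both KO and both WT libraries called the regions near NKD1 and EPHB3, that in LEF1 and the first in SMOC2. The second SMOC2 region was called by KO replicate 1 and both WT libraries.

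BMP and TGF-beta genes had 6 of 218 regions above (2.75%) and 1 below (0.459%), and those of BMP4, a ligand gene, were found in both directions. EGFR-RAS genes had 2 of 165 above (1.21%) and 3 below (1.82%). Beside the EGFR promoter these included a region 58695 bp from SPRY4, a feedback inhibitor gene, with 0 and 0.367 in AID_wash, 56.3 and 52.5 in AID_aux and 1.58 and 11.2 in AID_ctrl. A region near TGFA, an EGFR ligand gene, lay 38.6 points below AID_aux, and one in MAP2K1, the gene of a kinase upstream of ERK, 28.3 points below. Integrin, laminin and matrix genes had 2 of 194 above (1.03%) and 3 below (1.55%), with LAMC1, a laminin chain gene, 44.1 and TNC, the tenascin C gene, 35.6 points above, and CD44, a hyaluronan receptor gene, 30.5 and LAMA4, a laminin chain gene, 29.6 points below. Epithelial-mesenchymal transition genes had 3 of 102 above (2.94%), near VIM, ESRP1 and GRHL2, and 1 below (0.98%), near TWIST2.

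Mucin and goblet cell genes, which did not include the SPINK4 promoter, had 0 of 61 regions in either direction, and aryl hydrocarbon receptor genes 0 of 55. Colonocyte genes had 1 of 63 each way, near APOA4 above and in CA2 below, and ribosomal protein genes 0 of 51 above and 1 below, near RPL37A. Limma called 0 regions in each of these lists under the enrichment ranking.

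**Figure D4:**
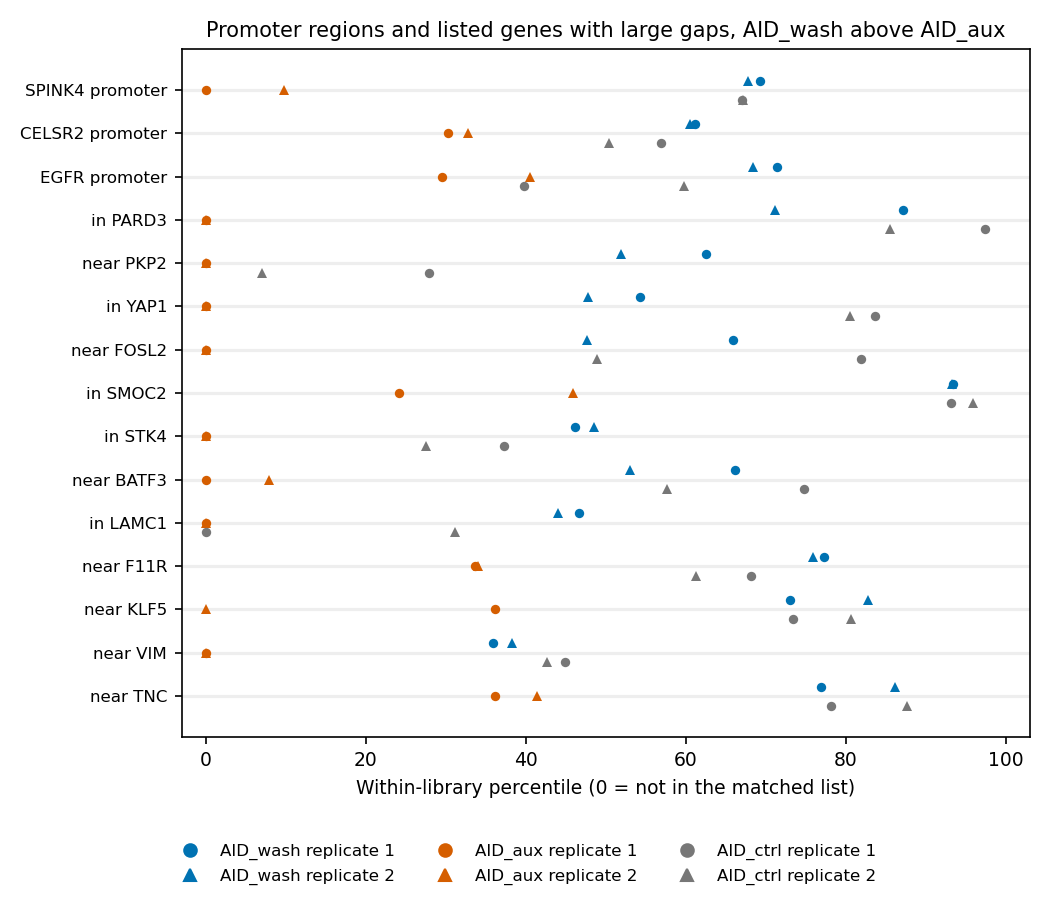
Within-library percentiles (horizontal axis, 0 = not in the matched list) of 3 promoter regions and of regions in or near genes of the lists with large gaps above AID_aux, with 1 point per library. The AID_wash points lie right of the AID_aux points in each, and the AID_ctrl points lie near AID_wash at SPINK4 (67.0 and 67.2), to its right in YAP1 (83.6 and 80.6) and to its left near PKP2 (27.9 and 7.08).

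Markers of colon epithelium, the labelled cell type, mostly had a called region within 1000 bp of the gene's start. Where no start was known, a region at either end of the gene was taken, so such a call need not lie at the start. Starts were known for 4 of 10 colon, 2 of 7 fibroblast and 3 of 7 blood markers. Of the 10 colon markers, 9 and 9 had such a region in AID_wash, 8 and 8 in AID_aux and 9 and 9 in AID_ctrl, and CDH17 had none. CDX2 and KRT18 were called in all 6 libraries but ranked low. Their percentiles were 3.43 and 3.28 in AID_wash replicate 1 and 0 in every other library. LGALS4, a galectin gene of colonocytes, was called in both AID_wash and both AID_ctrl libraries and in neither AID_aux library, with percentiles of 51.3 and 8.17 in AID_wash, 0 and 0 in AID_aux and 17.5 and 40.03 in AID_ctrl. KRT8, a keratin gene called in all 6 libraries, had 49.9 and 49.7 in AID_wash, 29.9 and 27.9 in AID_aux and 43.5 and 35.5 in AID_ctrl. CDX1 had 78.34 and 87.5 in AID_wash and 77.74 and 73.59 in AID_aux. At VIL1, EPCAM, CDH1 and KRT20 the AID_wash and AID_aux percentiles overlapped. VIL1 had 63.31 and 51.31 in AID_wash and 44.95 and 72.74 in AID_aux, and EPCAM had 82.89 and 84 against 79.17 and 87.6. CDH1 had 27.34 and 4.723 in AID_wash and 23.15 and 16.42 in AID_aux, and KRT20 had 37.44 and 70.27 against 31.44 and 55.01. Fibroblast markers were called at 1 and 2 of 7 genes in AID_wash, 2 and 3 in AID_aux and 2 and 2 in AID_ctrl, and COL3A1, PDGFRA, PDGFRB and THY1 at none. COL1A1 was called in all 6 libraries, at percentiles from 49.4 to 74.9. COL1A2 was called in all but AID_wash replicate 1, and DCN in AID_aux replicate 2 alone. Blood markers were called at 2 of 7 genes in each of the 6 libraries, near CD3E and SPI1. Their percentiles ran from 50.9 to 82.8 at CD3E and from 66.9 to 84.8 at SPI1. PTPRC, CD3D, CD79A and LYZ were among those called in none. Of all 28 regions assigned to fibroblast markers, 0 lay at least 20 points above AID_aux and 2 (7.14%) below, 37154 and 80045 bp from PDGFRA, and the list's median difference was −11.3 points, against 0.184 points over all regions. Of 19 regions assigned to blood markers 1 (5.26%) lay above, 23033 bp from PTPRC, and 0 below, and their median difference was 1.11 points. Of 61 assigned to colon markers 1 (1.64%) lay above, 86342 bp from EPCAM, and 0 below, and their median difference was 4.4 points. The part of these marker regions in the other results was not tested.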

How the data were processed

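ATAC-seq peak lists of 10 libraries were used. The submitters' processing notes name MACS2 2.1.1, Bowtie2 2.4.2, Trim Galore 0.6.10, Picard and hg38; their parameters were not given there. Per the labels' protocol, Omni-ATAC used 50000 cells and reads of 150 nt in pairs. In the 6 deposited degron lists each peak has a score, a fold enrichment ratio and the −log10 of its p-value and of its q-value, all the authors' own values within 1 list, listed per library. The deposited KO and WT lists give coordinates of 500-bp windows only.

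Over the 6 degron lists, intervals that overlapped or touched were merged (chromosomes 1 to 22, and X), and a library called a region with an overlap of 1 bp. Each region took its highest fold enrichment and was ranked within its library, after all lists were shortened to about the same number of regions, with tied regions sharing a mean rank and kept or left out together. Percentiles of regions held by at least 2 lists were fitted with limma 3.58.1 (R 4.3.3, eBayes with trend) over the 3 degron groups, adjusted by Benjamini-Hochberg, and checked on simulated data. There 200 regions of middle percentile were changed, with normally distributed noise. The fit called 0% of the 40-point and 83% of the 80-point changes, with 0 false calls. A count of 0 called regions therefore leaves differences of 40 points unresolved. It does not exclude larger ones either. The named chromosome 18 region, with a limma difference of 94.9 points, was not called (limma adjusted p of 0.074). The simulated noise depended only on the mean percentile, so the 83% need not hold for these data. Regions not held entered the fit as 0. The deposited score was not used. Genes came from RefSeq (GRCh38.p14) by the nearest protein-coding gene within 100000 bp; that table has no strand or exons, so exon, intron and UTR are not told apart. Starts and promoter sequences came from a second RefSeq table, which is not complete. All coordinates count from 1 in hg38.

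The text names the 15 largest gaps in each direction, the 10 genes with the most regions, up to 4 genes per list and the 5 largest promoter gaps in each direction, and GATA6. The members, gene lists and alternatives were chosen with earlier results of these data known. Alternatives changed the ranking value, list length, peak threshold, overlap, region unit, filters, model and libraries. Without read counts, precision is limited by the number of libraries. Values of 3 genes are not reported here, and their regions remain in the counts.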

Additional observations from a re-analysis of the deposited data

How the results depend on the processing

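The limma count of 0 regions higher in AID_wash became 110 when regions were ranked by −log10 p, 33 at an adjusted p of 0.10 and 25 among regions held by at least 3 lists. It was 0 under the other alternatives run, and the count lower in AID_wash was 0 under all of them. With the replicate number as a block, limma called 0 higher and 0 lower; same-numbered libraries did not deviate together (correlation −0.0636 between AID_wash and AID_aux deviations, −0.0225 between AID_wash and AID_ctrl, 0.0104 between AID_aux and AID_ctrl), so the numbers were not read as pairs.

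Regions held by both AID_wash lists and neither AID_aux list numbered 2198 (2.66%), and 1356 with unmatched lists, 4636 with 500-bp windows. The reverse numbered 2105 (2.54%), and 3897 with unmatched lists, 1296 with the shortest lists and 4854 with windows. The 20-point gap above AID_aux was found in 1151 regions with unmatched lists, 3855 with windows, 4805 at 10 points and 842 at 30. Below AID_aux it was found in 770 by −log10 p, 2862 with unmatched lists, 3413 with windows, 4709 at 10 points and 442 at 30. The 50-point gap above was found in 128 regions with unmatched lists, 352 under 50% cover and 624 with windows, and below in 0 by −log10 p, 113 with the shortest lists, 425 under 50% cover and 315 with windows. The share with no KO call and both WT calls was 39.1% by −log10 p, 40.6% with unmatched lists, 13.8% with the shortest lists and 18.2% under 50% cover. The cause of these shifts was not tested.

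With 1 AID_wash or AID_aux library left out, the counts of regions held and of gaps were higher, and the reason was not tested. Both washout and neither auxin list then held 3953 to 8427 regions and the reverse 4413 to 6182. The 20-point gap was found in 3755 to 5116 above and 4101 to 5226 below. The 50-point gap was found in 355 to 417 above and 76 to 289 below, more above than below in all 4, while the KO and WT share was lower, 22 to 24.0%. The limma counts stayed 0 with any of the 6 libraries left out. For the 93 named regions, 809 values were recomputed under the ranking, length, peak threshold, overlap and left-out-library alternatives. Of these, 0 changed sign, and 8 newly passed the threshold, all by −log10 p. No region had passed under the enrichment ranking, so remaining short of the threshold says little. A kept sign is also not a kept size. The YAP1 difference of 51.05 points shrank with the shortest lists, where its limma adjusted p was 0.961. Regions that dropped out under an alternative, such as those in STK4 and AMOTL1 with the shortest lists, have no value there.

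Limits: 2 libraries a group, unknown depth and peak calls with a threshold leave moderate and some large differences unresolved. Ranks show order within a library, not absolute accessibility. AID_wash replicate 1 has the shortest list, which the matching of lengths addresses only in part.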

Other observations

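The share of regions with a gap of at least 20 points above AID_aux was 1.28% on chromosome 22 and 3.32% on X, the lowest and highest of the chromosomes, and below AID_aux it was 1.11% on chromosome 22 and 2.34% on chromosome 4. A region 86342 bp from EPCAM, the epithelial adhesion gene used as a colon marker, had percentiles of 59.4 and 47.3 in AID_wash, 22.4 and 0 in AID_aux and 48.2 and 66.6 in AID_ctrl, and neither KO library and both WT libraries called it. A region near GRHL2, a factor of epithelial identity, was held by both AID_wash lists (32.3 and 23.3) and by neither AID_aux nor shortened AID_ctrl list, and was called by neither KO and both WT libraries.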
